A study of Mus musculus with 20 samples.

Results

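Ketone body use was described here by 4 genes, Slc16a1, Bdh1, Oxct1 and Acat1, taken by their symbols from the 25052 genes listed for each library of mouse left ventricle. All 4 were among the 12775 genes with enough signal to be tested. The liver makes the ketone bodies acetoacetate and 3-hydroxybutyrate from fatty acids and releases them into the blood, and the heart, which makes little of them, takes them up and oxidises them in its mitochondria. Slc16a1 encodes the carrier MCT1, which moves ketone bodies, lactate and pyruvate across the cell membrane. Bdh1 encodes the dehydrogenase that turns 3-hydroxybutyrate into acetoacetate, Oxct1 encodes SCOT, which moves coenzyme A from succinyl-CoA onto acetoacetate, and Acat1 encodes the mitochondrial thiolase that splits acetoacetyl-CoA into acetyl-CoA.

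The study compared male mice with and without ACC2, the acetyl-CoA carboxylase encoded by Acacb whose product malonyl-CoA restrains fatty acid entry into mitochondria. The ACC2 iKO mice were ACC2 flox/flox and carried the tamoxifen-inducible MerCreMer recombinase. The animals called WT in the labels were littermates, also ACC2 flox/flox, without the recombinase. All 20 mice, WT included, were injected with tamoxifen (20 mg/kg) on 5 days when 8 weeks old, and 4 weeks after the last dose began 16 weeks on chow or on the high-fat diet (HFD) D12492. Each of the 4 groups (WT chow, iKO chow, WT HFD and iKO HFD) held 5 mice. The labels do not name the promoter of MerCreMer, and no group had the recombinase without floxed alleles, so loss of ACC2 and presence of the recombinase cannot be told apart.

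Acacb lay between 34.9 and 41.9 FPKM (fragments per kilobase of transcript, scaled to the number of fragments mapped in the library) in the 10 WT libraries and between 8.37 and 11.9 FPKM in the 10 iKO libraries. Esr1, whose ligand-binding sequence MerCreMer contains, was at most 2 FPKM in WT and at least 421 FPKM in iKO, so every library matched its genotype label. Summed cardiomyocyte markers were above 22283 FPKM in every library, and Myl7, an atrial gene, stood at 145 FPKM in library RT1 and 30.8 FPKM in RT4 against at most 2.88 FPKM elsewhere. The depth, estimated from the steps that 1 read makes in the values, was between 12.5 M and 31.3 M assigned reads. Libraries RT1 to RT10 were all from chow mice and RT11 to RT20 all from HFD mice, so library order and diet cannot be told apart.

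Oxct1 was lower on the HFD than on chow in both genotypes, while Slc16a1 passed the test in no comparison. Acat1 moved the other way with the diet, rising in iKO, and was lower in iKO than in WT on chow. Bdh1 varied most among mice of the same group and passed no test. The 4 genes of ketone use thus did not move as a unit, as the plot of their levels by group shows.

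**Figure D1:**
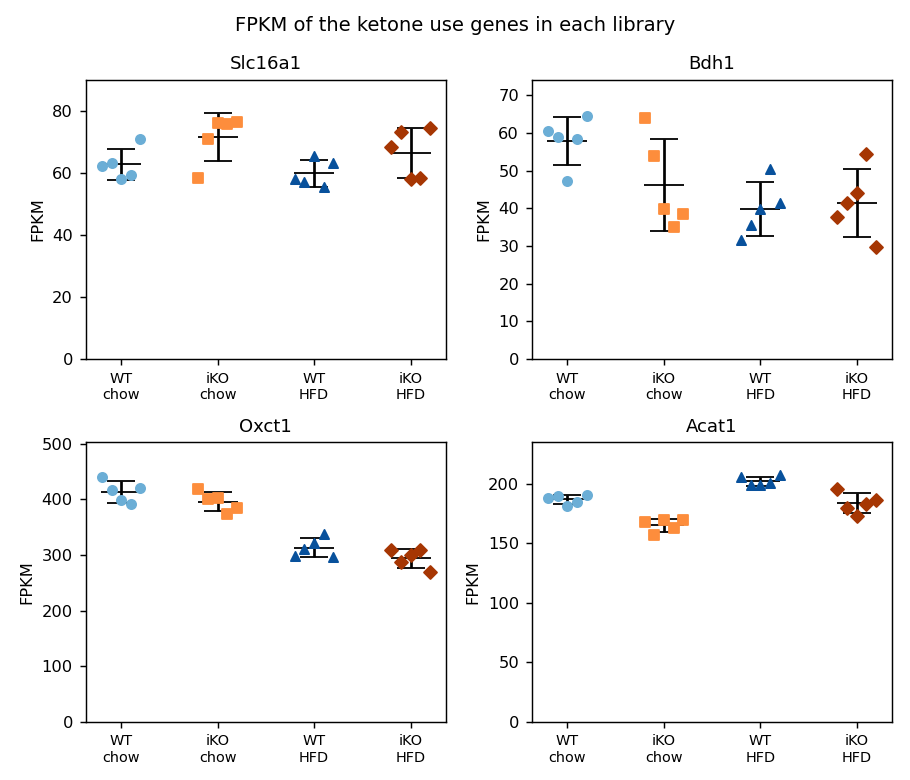
FPKM of the 4 ketone use genes in each library (points, 5 mice per group), with the group mean and SD (bars). Oxct1 of all 10 chow libraries (at least 374 FPKM) lies above that of all 10 HFD libraries (at most 338 FPKM), while the groups overlap for Bdh1 and Slc16a1.

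Oxct1 (ENSMUSG00000022186.14, chr15:4026383-4155344 on the plus strand of GRCm38) was the most abundant of the 4, ranking 141 among the 25052 genes by mean FPKM in WT on chow. In WT on chow it read 440.0, 417, 399, 391 and 421 FPKM in RT1, RT3, RT5, RT8 and RT10. In WT on the HFD it read 298, 310.0, 321, 338 and 297 FPKM in RT12, RT14, RT16, RT18 and RT19. Each WT mouse on chow was therefore above each WT mouse on the HFD. The iKO mice on chow read 418, 401, 402, 374 and 385 FPKM in RT2, RT4, RT6, RT7 and RT9. Those on the HFD read 309, 287, 299, 308 and 269 FPKM in RT11, RT13, RT15, RT17 and RT20. The same gap separated the diets in iKO, and all 10 chow libraries were above all 10 HFD libraries, as held in either direction for 1.64% of the genes tested.

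The differences were tested with limma on log2(FPKM + 1), adjusted by the Benjamini-Hochberg method over the 12775 genes, with calls at an adjusted p under 0.05. For each gene, the 4 groups of 5 mice shared an estimate of the spread between mice within groups. The p-values rest on that estimate, so libraries outside a comparison also affect them. Between diets in WT, 8.04% of the tested genes were called, 7.27% as lower on the HFD, and 1 of the 4 ketone use genes, Oxct1, was among them. Oxct1 fell by 0.40 on the log2 scale in WT (SE 0.05, adjusted p = 2.24e-05), from 414 ± 19.4 to 313 ± 17.3 FPKM (SD, n = 5 each). In iKO it fell by 0.43 (SE 0.05, adjusted p = 3.45e-06), from 396 ± 17 to 294 ± 17 FPKM (SD, n = 5 each). The median of all tested genes was -0.08 in WT and -0.07 in iKO on the same scale, so that the change in Oxct1 was several times the general shift. With the libraries scaled by median-of-ratios, which brings that median to 0, Oxct1 fell by 0.30 in WT and by 0.34 in iKO. The 2 diet effects were not found to differ, with an interaction of -0.03 on the log2 scale (95% interval -0.17 to 0.11, limma adjusted p = 0.999).

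Genotype made less difference to Oxct1. On chow the difference of iKO from WT was -0.06 on the log2 scale (95% interval -0.16 to 0.04, limma adjusted p = 0.572), and on the HFD it was -0.09 (95% interval -0.19 to 0.01, limma adjusted p = 0.371). The median of all tested genes was 0.05 on chow and 0.06 on the HFD in these comparisons. Under other processing settings the differences of Oxct1 reached -0.13 on chow and -0.17 on the HFD, and none was called. The ranges of WT and iKO overlapped on both diets. In the order of levels, only the step from iKO on chow to WT on the HFD separated neighbouring groups without overlap (exact permutation test, two-sided, p = 0.00794, the smallest that 5 against 5 allows).

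Most of the cardiomyocyte markers tested were lower on the HFD as well. Of 7 tested (Myh6, Actc1, Tnnt2, Tnni3, Myl2, Ryr2 and Pln), 5 were called lower on the HFD in WT and 4 in iKO. Among all tested genes 7.27% and 8.36% were called lower. Ryr2 had differences above 0 (0.05 in WT and 0.14 in iKO), and Actc1 had -0.07 and -0.08, none of them called. The summed level of the 7 markers was 28311 to 29339 FPKM in WT on chow and 28018 to 32076 in iKO on chow. On the HFD it was 22283.5 to 27777 in WT and 23470 to 25301 in iKO, and no marker was at 0. The part of this shift in the lower Oxct1 was not tested. In tissue RNA, fewer cells of a type and less RNA per cell cannot be told apart.

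The sequence before the start of Oxct1 is shown beside that of Slc16a1 because the first gene was called between diets and the second was not. RefSeq windows on GRCm38.p6 reach from 250 bases before a gene's start to 50 after it, and they were found for Oxct1, Bdh1 (2 starts) and Slc16a1 among 32851 windows. Printed are bases -250 to -51 on the plus strand, chr15:4026178-4026377 for Oxct1 and chr3:104638414-104638613 for Slc16a1, with capitals marking an E-box.
Oxct1: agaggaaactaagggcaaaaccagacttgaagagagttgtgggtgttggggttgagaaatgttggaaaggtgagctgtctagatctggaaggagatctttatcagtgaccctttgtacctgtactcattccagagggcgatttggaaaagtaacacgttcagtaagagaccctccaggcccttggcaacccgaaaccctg
Slc16a1: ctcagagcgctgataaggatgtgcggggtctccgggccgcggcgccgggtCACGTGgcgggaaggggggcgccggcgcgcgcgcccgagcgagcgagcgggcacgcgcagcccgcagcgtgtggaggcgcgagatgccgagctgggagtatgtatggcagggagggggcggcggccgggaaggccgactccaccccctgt
The motifs were searched on both strands of the whole windows. The direct repeat AGGTCANAGGTCA bound by PPAR, the estrogen-related receptor motif TNAAGGTCA and the nuclear receptor motif AGGTCA, which the other 2 contain, matched 0.0396%, 1.28% and 16.3% of all windows. The E-box CACGTG matched 7.15% and the forkhead motif TGTTTAC 3.65%. Among the 4 windows of the ketone use genes the single match was the E-box of Slc16a1, whose first base lies at -200. The Slc16a1 window had a GC content of 73.7% with 42 CpG, and the Oxct1 window 55.3% with 11 CpG, against a median over all windows of 52.7% and 7 CpG. A match is a description of the letters and not a site shown to be bound.

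Slc16a1 (ENSMUSG00000032902.1, chr3:104638668-104658462, plus strand), the carrier at the head of the route, had 62.8 ± 5.05 FPKM for WT chow and 71.6 ± 7.70 for iKO chow (SD, n = 5 each). On the HFD it had 59.9 ± 4.30 FPKM in WT and 66.5 ± 8.02 in iKO (SD, n = 5 each). It read 58.5, 70.8, 76.2, 75.9 and 76.4 FPKM in RT2, RT4, RT6, RT7 and RT9, so that RT2 lay well below the other 4 iKO mice on chow, and RT2 and RT4 fell within the WT chow range of 58.2 to 71.0. All 4 groups overlapped. The difference of iKO from WT was 0.18 on the log2 scale on chow (95% interval 0.01 to 0.35, limma adjusted p = 0.330) and 0.14 on the HFD (95% interval -0.03 to 0.31, limma adjusted p = 0.398). Between diets it was -0.07 in WT (limma adjusted p = 0.634) and -0.11 in iKO (limma adjusted p = 0.451). At least 4106 reads per library lay behind these values, by the depth estimate.

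Bdh1 (ENSMUSG00000046598.14, chr16:31422280-31458901, plus strand), the enzyme that handles the more abundant of the circulating ketone bodies, had a mean close to that of the carrier in WT on chow (57.9 against 62.8 FPKM) and below it in the other groups. The means were 46.2 against 71.6 FPKM in iKO on chow, 39.8 against 59.9 in WT on the HFD and 41.4 against 66.5 in iKO on the HFD. In the library order used for Oxct1, WT mice read 60.5, 58.9, 47.2, 58.3 and 64.4 FPKM on chow and 31.5, 35.6, 39.9, 50.4 and 41.5 FPKM on the HFD. Only RT18 on the HFD exceeded the lowest WT chow library, RT5. The iKO mice read 63.8, 53.8, 39.8, 35.0 and 38.6 FPKM on chow and 37.7, 41.5, 44.0, 54.3 and 29.6 FPKM on the HFD. Of the iKO mice on chow, RT2 and RT4 were within the WT chow range, and the other 3 were below it and within the range of both HFD groups. RT4 also lay within the range of iKO on the HFD, whose highest mouse, RT17, read 54.3 FPKM.

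The difference in Bdh1 between HFD and chow in WT, -0.54 on the log2 scale (SE 0.17, 95% interval -0.90 to -0.18), was larger than that of Oxct1 but missed the threshold (limma adjusted p = 0.0567). In iKO it was -0.14 (95% interval -0.50 to 0.21, limma adjusted p = 0.646). The interaction was 0.40 (95% interval -0.11 to 0.90, limma adjusted p = 0.999), so the diet effects of the genotypes were not shown to differ. Against WT, iKO differed by -0.35 on chow (95% interval -0.70 to 0.01, limma adjusted p = 0.379) and by 0.05 on the HFD (95% interval -0.31 to 0.40, limma adjusted p = 0.907). The residual SD of Bdh1 within groups was 0.28 on the log2 scale, above that of 95.5% of the tested genes. That of Oxct1 was 0.07 and that of Slc16a1 0.14, against a median of 0.12 over all tested genes. Bdh1 between diets in WT passed without RT5 (-0.61) or RT18 (-0.63), which are WT libraries. It also passed without RT2, RT7, RT17 or RT20, which are iKO libraries, and there the difference stayed at -0.54. Over all single libraries left out, the difference lay between -0.63 and -0.46. In a fit of the 2 WT groups alone it was -0.54 (SE 0.11, limma adjusted p = 0.0157).

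Acat1 (ENSMUSG00000032047.5, chr9:53580522-53610382, minus strand), the last enzyme of the route, was the steadiest. Its residual SD was 0.04 on the log2 scale, below which lay 0.399% of the tested genes. It read 188, 189, 181, 185 and 191 FPKM in WT on chow, in the same library order, and 167, 157, 169, 163 and 169 FPKM in iKO on chow. On the HFD it read 206, 199, 199, 201 and 207 FPKM in WT and 195, 179.9, 173, 183 and 187 FPKM in iKO. The WT mice were above the iKO mice on either diet with no overlap, which held for 3.19% of the tested genes on chow and for 3.24% on the HFD. The diets did not overlap within a genotype either, as for 10.8% of the genes in WT and 7.80% in iKO. WT on chow and iKO on the HFD overlapped and were not told apart (187 ± 3.86 and 184 ± 8.21 FPKM, SD, n = 5 each, exact permutation test, two-sided, p = 0.444).

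Between genotypes on chow 1.06% of the tested genes were called, and Acat1 was the 1 of the 4 ketone use genes among them. It fell by 0.18 on the log2 scale in iKO (SE 0.04, limma adjusted p = 0.0106), to 165 ± 5.44 FPKM (SD, n = 5). The call was lost without RT1 and RT4 together (-0.16, adjusted p = 0.0868), the libraries with atrial transcripts, and without RT4 and RT7 together (-0.15, adjusted p = 0.123), of which RT7 had the lowest estimated depth and RT4 did not stand apart in depth. Fibroblast markers (6 genes, named with their values beside Bdh1) were all above 0 in iKO against WT on chow, with a median of 0.35 on the log2 scale, and limma called none of them. Of the 12775 tested genes, 9041 were above 0 in this comparison. The 5 erythroid and 5 macrophage markers were also all above 0 (medians 0.37 and 0.16), and each other tested marker list held genes below 0. RT4, the iKO chow library of lowest Acat1, had the highest summed level of fibroblast markers, 699 FPKM. Over the 10 iKO mice, with each diet group centred, Acat1 against that sum had r = -0.72 (permutation p = 0.0327, adjusted p = 0.142 over 20 relations) and rho = -0.72 (permutation p = 0.0363, adjusted p = 0.145), with r = -0.64 without the 2 mice farthest from the median of Acat1. It was -0.73 on chow and -0.72 on the HFD, and neither coefficient passed the adjustment. In WT r was 0.03 (permutation p = 0.953, adjusted p = 0.953). The part of these markers in the lower Acat1 was not tested. On the HFD, where 0.172% of the tested genes were called between genotypes (0.102% higher, 0.0705% lower), limma called none of the 4, and 1 had an unadjusted p under 0.05. That gene was Acat1, with a difference of -0.14 (SE 0.04, limma adjusted p = 0.117), a value close to that on chow. Of the 12775 tested genes, 1947 had an unadjusted p under 0.05 in this comparison.

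Between diets in iKO 1.65% of the tested genes were called higher and 8.36% lower on the HFD, and of the 4 ketone use genes Acat1 was called higher and Oxct1 lower. Acat1 rose by 0.15 on the log2 scale in iKO (SE 0.04, limma adjusted p = 0.00967). Without RT4 and RT7 this difference was 0.12 and was not called (adjusted p = 0.0909). In WT its difference was 0.11 (SE 0.04, limma adjusted p = 0.0542), just outside the threshold. It passed without RT4 or without RT11, which are iKO libraries and whose removal left the WT difference at 0.11. The diet effects of the genotypes were not shown to differ (interaction 0.04, 95% interval -0.07 to 0.14, limma adjusted p = 0.999). Limma called none of the 4 for the interaction and none had an unadjusted p under 0.05, where 0.0313% of all tested genes were called. An unadjusted p under 0.05 for the interaction was found for 480 of the 12775 tested genes.

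**Figure D2:**
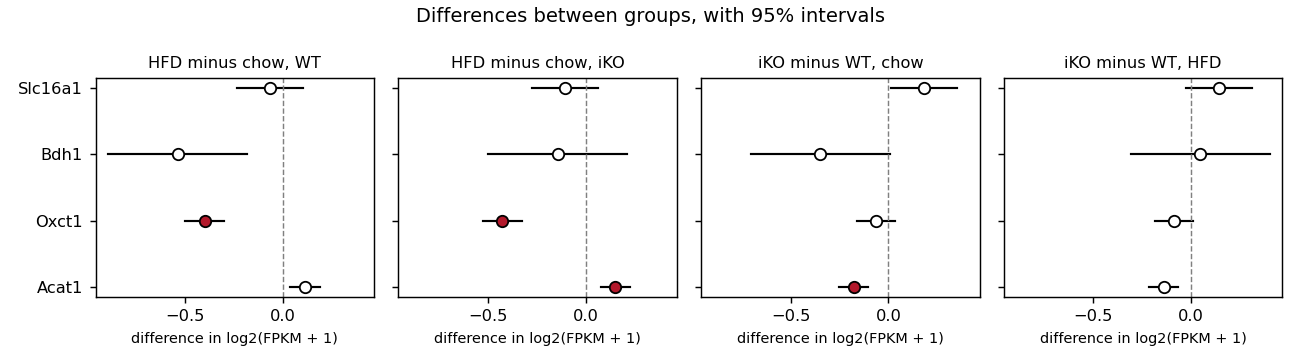
Difference between groups in log2(FPKM + 1) for each ketone use gene, with 95% intervals (lines), where filled points passed limma's adjusted p of 0.05 over 12775 genes. Oxct1 is filled and below 0 in both diet comparisons (-0.40 in WT and -0.43 in iKO), and Acat1 is filled above 0 between diets in iKO and below 0 between genotypes on chow.

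Because Oxct1 and Acat1 had opposite signs between diets, the level of Oxct1 relative to Acat1 changed by group. Oxct1 was 2.21 ± 0.082 times Acat1 for WT chow and 2.40 ± 0.124 times for iKO chow (SD, n = 5 each). On the HFD it was 1.55 ± 0.108 times in WT and 1.61 ± 0.111 times in iKO (SD, n = 5 each). Relative to Bdh1, Oxct1 stood at 7.21, 8.96, 8.02 and 7.33 times in WT chow, iKO chow, WT HFD and iKO HFD, with group ranges that overlapped. Summed over the route, the 4 genes had 721 ± 30.3 FPKM in WT chow, 679 ± 22.3 in iKO chow, 615 ± 20.6 in WT HFD and 586 ± 21.0 in iKO HFD (SD, n = 5 each), and in each group mean Oxct1 exceeded the other 3 together.

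**Figure D3:**
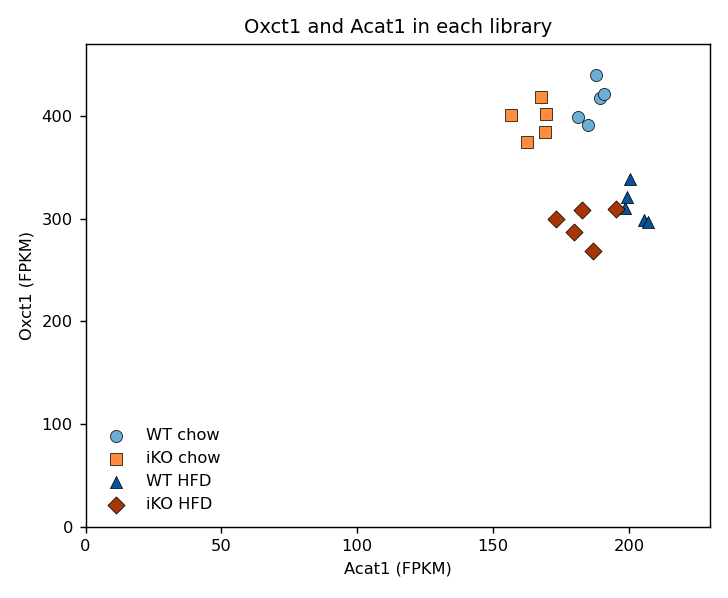
Oxct1 against Acat1 (both FPKM) in each of the 20 libraries, marked by group. The HFD libraries lie below the chow libraries (Oxct1 at most 338 against at least 374 FPKM), and within each diet the iKO libraries lie to the left of the WT libraries.

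Within groups, Bdh1 and Slc16a1 were compared mouse by mouse after their values were seen, together with the other pairs of the 4 genes and their relation to fibroblast markers, 20 relations in all. In the 10 iKO mice, with each diet group centred, Bdh1 and Slc16a1 had a Pearson r of -0.85 (permutation p = 0.00229, adjusted p = 0.0458 over the 20 relations) and a Spearman rho of -0.81 (permutation p = 0.00612, adjusted p = 0.0707). The first passed the adjustment and the second did not. The sign was the same on chow (r = -0.91) and on the HFD (r = -0.79), and without the 2 mice of most extreme Bdh1 r was -0.64. In the 10 WT mice r was 0.28 (permutation p = 0.449, adjusted p = 0.701) and rho 0.28 (permutation p = 0.453, adjusted p = 0.677). In WT r was 0.76 on chow and -0.06 on the HFD, and 0.74 without the 2 mice of most extreme Bdh1. The difference between the genotypes in this relation was not tested. Oxct1 against Slc16a1 in iKO had the same sign, with r = -0.73 (permutation p = 0.0354, adjusted p = 0.142), r = -0.69 without the 2 most extreme mice, and rho = -0.79 (permutation p = 0.0141, adjusted p = 0.0707), and neither passed the adjustment.

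**Figure D4:**
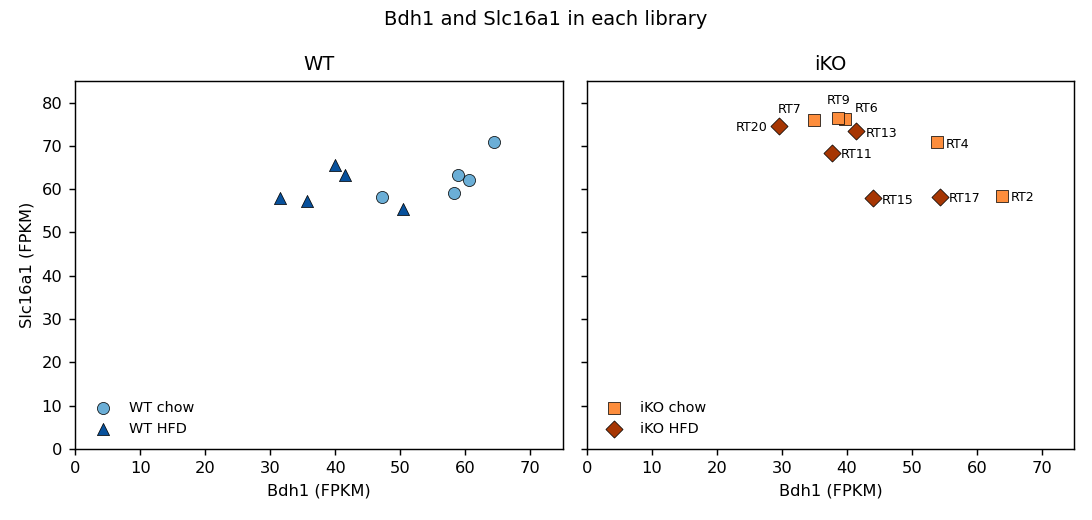
Bdh1 against Slc16a1 (both FPKM) in each WT library (left) and each iKO library (right, labelled by library). In iKO the libraries of highest Bdh1, RT2 on chow with 63.8 FPKM and RT17 on the HFD with 54.3 FPKM, had 58.5 and 58.3 FPKM of Slc16a1.

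Fibroblast markers were compared with Bdh1 in the same mice, and the relation did not pass the adjustment in either genotype. Summed over Col1a1, Col1a2, Col3a1, Pdgfra, Dcn and Lum, they were 323 to 388 FPKM in WT chow, 322 to 348 in WT HFD, 362 to 699 in iKO chow and 305 to 611 in iKO HFD, with no marker at 0. RT2 and RT4, the iKO chow mice of highest Bdh1, had 577 and 699 FPKM of these markers, and RT17 had 611. The relation to Bdh1 in iKO had r = 0.84 (permutation p = 0.00636, adjusted p = 0.0636) and rho = 0.77 (permutation p = 0.0125, adjusted p = 0.0707), with r = 0.85 without the 2 most extreme mice. In WT r was -0.15 (permutation p = 0.613, adjusted p = 0.817), with 0.22 on chow and -0.81 on the HFD. Slc16a1 against the same sum in iKO had r = -0.60 (permutation p = 0.111, adjusted p = 0.309) and rho = -0.50 (permutation p = 0.182, adjusted p = 0.444). Of the 6 markers limma called none between genotypes on either diet, with 1 on chow and 2 on the HFD at an unadjusted p under 0.05. Among all 12775 tested genes there were 1723 on chow and 1947 on the HFD. The part of the 6 markers in the spread of Bdh1 was not tested. For Oxct1 against Bdh1 r was 0.79 in iKO (permutation p = 0.0127, adjusted p = 0.0846; rho = 0.79, permutation p = 0.0128, adjusted p = 0.0707) and 0.67 in WT (permutation p = 0.0592, adjusted p = 0.197), which did not pass the adjustment. Of the 20 relations, the Pearson value of Bdh1 against Slc16a1 in iKO was the 1 that passed.

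The genes whose log2 values were most like those of each ketone use gene over the 20 libraries differed from gene to gene. For Oxct1 they were Abat, the transaminase of the neurotransmitter GABA (r = 0.96), Hsbp1l1 (r = 0.95) and Oat, ornithine aminotransferase (r = 0.95). The mean levels of these 3 were 3.92, 0.73 and 87.5 FPKM, so that Hsbp1l1 lay near the 0.5 FPKM needed for testing. For Acat1 they were Acadm, the medium-chain acyl-CoA dehydrogenase (r = 0.95), Lrrc39 (r = 0.95) and Hadhb, a subunit of the trifunctional protein of fatty acid oxidation (r = 0.93). For Bdh1 they were Cdh4, a cadherin (r = 0.80), Rdh5, a retinol dehydrogenase (r = 0.79), and Hoga1 (r = 0.79), with mean levels between 0.389 and 1.70 FPKM. For Slc16a1 they were Timm8a1, a mitochondrial import factor (r = 0.88), Ciapin1 (r = 0.86) and Usp28, a ubiquitin hydrolase (r = 0.81). These are descriptions over libraries that fall into 4 groups. With each group centred the values for the first of each were 0.49 for Abat, 0.68 for Acadm, 0.66 for Cdh4 and 0.88 for Timm8a1.

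The other genes around the route were taken from lists of 36 genes, of which 22 were tested. The thiolases of fatty acid oxidation, listed with Hadha, the partner of Hadhb, held 4 of the 4 calls in these lists between genotypes on chow, and 3 of 4 and 3 of 5 between diets in WT and in iKO. On chow 4 of 5 tested were called lower in iKO, beside 0.720% of all genes, with Acaa2 at -0.54, Hadha at -0.40, Hadhb at -0.32 and Scp2 at -0.22 on the log2 scale. The median of the 5 was -0.32 against 0.05 for all genes. The remaining tested gene, Acaa1a, had the opposite sign, at 0.14 on chow and 0.09 on the HFD between genotypes. Between diets Acaa1a was at -0.13 in WT and -0.18 in iKO, and limma called none of these differences. With the HFD Acaa2, Hadha and Hadhb rose by 0.23, 0.21 and 0.16 in WT and by 0.54, 0.49 and 0.36 in iKO, 3 of 5 in each genotype, beside 0.767% and 1.65% of all genes. Their interactions were 0.30, 0.28 and 0.19 (limma adjusted p = 0.203, 0.203 and 0.278), and none was called. For the interaction 3 of the 5 thiolases had an unadjusted p under 0.05, beside 480 of all 12775 tested genes. On the HFD Acaa2 fell in iKO (-0.23, limma adjusted p = 0.0343), a call lost when any of 10 libraries was left out. That call was also lost with no filter and with only the 2 groups compared. Acat1, the thiolase of the ketone route, differed by -0.18 and -0.14 between genotypes on chow and on the HFD and by 0.11 and 0.15 between diets in WT and iKO, each smaller in size than that of Acaa2. The Scp2 call was lost without RT3, RT4, RT5, RT8 or RT9, with no filter, with only the 2 groups compared and without RT4 and RT7.

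Among the other monocarboxylate carriers and their partners, 4 of 8 were tested. Slc16a6, encoding a carrier described in zebrafish as exporting ketone bodies from the liver, fell with the HFD in WT (-0.47, limma adjusted p = 0.00489) and in iKO (-0.37, limma adjusted p = 0.0161). In iKO the call was lost without RT13, under both other scalings, with only the 2 groups compared and without RT4 and RT7. The level of Slc16a6 was 3.34 ± 0.268 FPKM in WT on chow and 2.13 ± 0.25 in WT on the HFD (SD, n = 5 each), far below that of Slc16a1. Slc16a7, encoding MCT2, fell with the HFD in iKO (-0.57, limma adjusted p = 0.0126) and had a difference of -0.31 in WT (limma adjusted p = 0.172). Bsg, the chaperone that carries MCT1 to the membrane, was abundant at 682 ± 20.0 FPKM in WT on chow (SD, n = 5), and its differences ranged from -0.14 to -0.01. Slc5a8 and Slc5a12, the sodium-coupled carriers, were at most 0.03 FPKM in any library.

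The enzymes of succinyl-CoA and acetyl-CoA use beside the SCOT step (Suclg1, Suclg2, Sucla2, Ogdh, Dlst and Cs) had no call by limma in any of the 4 pairwise comparisons. At an unadjusted p under 0.05 there were 2 of 6 between diets in WT and 0 in the others. Among all 12775 tested genes there were 3271 between diets in WT and 3278 in iKO. Between genotypes there were 1723 on chow and 1947 on the HFD. The differences of the 6 enzymes lay between -0.13 and 0.04. Ogdh, the succinyl-CoA source, had 587 ± 19.7 FPKM in WT on chow and Cs, citrate synthase, 470 ± 8.85 (SD, n = 5 each). Of the related enzymes outside the mitochondrial route, Hmgcs1, Acat2 and Aacs were tested with no call by limma. An unadjusted p under 0.05 was found for 1 of the 3 in each diet comparison and between genotypes on the HFD. The counts over all tested genes in these comparisons are those just given. Of the regulators Ppara, Ppargc1a, Esrra and Sirt3, limma called none and none had an unadjusted p under 0.05. Ppargc1a had the widest spread, 43.6 ± 26.6 FPKM in iKO on the HFD (SD, n = 5), where RT11 and RT13 read 70.6 and 74.3 FPKM and the other 3 at most 30.7. The receptor Hcar2, which binds 3-hydroxybutyrate, was at most 0.06 FPKM, and Hcar1, which binds lactate, at most 0.58 FPKM. Fgf21 was at most 0.25 FPKM. Ffar3, Foxa2, Oxct2a and Oxct2b were not among the symbols listed for the libraries, so they had no values to analyse.

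**Figure D5:**
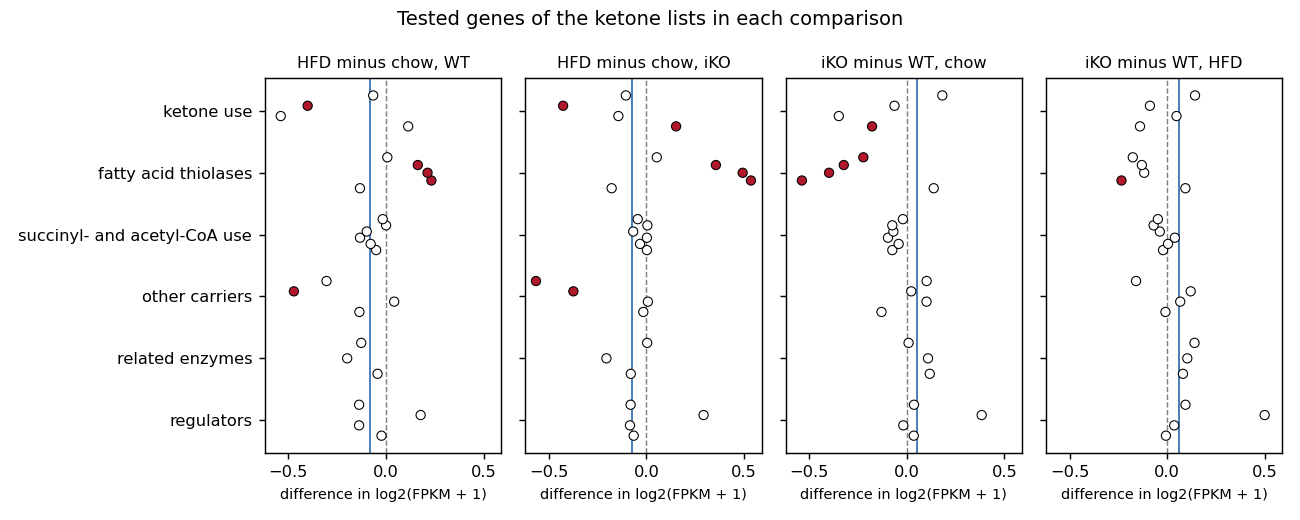
Difference in log2(FPKM + 1) of each tested gene (points, filled where limma's adjusted p was under 0.05) by list in the 4 pairwise comparisons, with the median of all tested genes as a blue line. Of the 5 fatty acid thiolases, 4 lie left of 0 on chow between genotypes (median of the 5, -0.32). Between diets in iKO 4 lie right of 0 (median of the 5, 0.36). Acaa1a lies on the other side in each (0.14 and -0.18). The succinyl- and acetyl-CoA genes lie between -0.13 and 0.04, and left of the blue line in both genotype comparisons.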

How the data were processed

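Poly(A) RNA of frozen left ventricle (integrity number above 8) was sequenced single-end with a read length of 100 nt, to about 50 M reads by the submitters' account, per the labels' protocols. The authors deposited FPKM per gene for each library, to 2 decimals. Bowtie2, RSEM, DESeq2 and the build mm9 are named without versions in the submitters' processing notes. Of the 25052 gene IDs, 24938 were found in GENCODE M21 (build GRCm38), 19995 with the same version, so coordinates were looked up by ID on GRCm38. FPKM carries no counts, and estimates for genes with several transcripts depend on how reads were assigned to them.

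Genes had to reach 0.5 FPKM in 5 or more libraries. Limma 3.58.1 (R 4.3.3), with trend and robust moderation, was fitted to log2(FPKM + 1) of all 20 libraries with 4 group means, for 4 pairwise contrasts and the interaction. Adding 1 understates the change of low genes. The fit was tested on simulated data. Levels were compared by exact permutation tests, and relations within genotypes with 100000 permutations within groups (Python 3.11.15, scipy 1.17.1). Depth was estimated from single-read steps in short genes with a single transcript, of whose values 55.4% to 73.1% were whole within 0.05 reads, so counts were not recovered. No libraries were identical. The genes and lists, the tests and the rule for naming genes (the 4 use genes, called list genes and the 3 genes most like each use gene) were chosen with earlier results of these data known. Planned results for other single genes are not reported here. Ogdh, Cs, Bsg, Ppargc1a, Slc5a8, Slc5a12, Hcar1, Hcar2 and Fgf21 were named after their values were seen.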

Additional observations from a re-analysis of the deposited data

How the results depend on the processing

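Of the differences above, those of Oxct1 between diets were called under all 20 fits that left out 1 library and all 10 other settings, between -0.43 and -0.30 in WT and between -0.45 and -0.34 in iKO. Acat1 on chow was called in all 20 fits without 1 library, and its genotype differences kept their sign in every setting. Acat1 between diets in WT passed under median-of-ratios (0.22) and upper-quartile scaling (0.20), without robust moderation (0.11), with array weights (0.11) and without RT4 and RT7 (0.11), and lay between 0.10 and 0.12 when 1 library was left out. In iKO its call was lost with only the 2 groups compared in the fit (0.15) and without RT4 and RT7 (0.12). Array weights called Acat1 between genotypes on the HFD (-0.14). On chow its call was lost without RT1 and RT4 (-0.16) or RT4 and RT7 (-0.15). Bdh1 between diets in WT passed without robust moderation, with only the 2 groups compared and without RT4 and RT7 (-0.54 each), and with array weights (-0.55), and lay between -0.63 and -0.46 when 1 library was left out. RT4 and RT7 are iKO libraries, and leaving them out did not change the size of the WT differences. The causes were not tested.

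Among the 4 genes, signs turned only in uncalled differences. Under median-of-ratios and upper-quartile scaling, Bdh1 between genotypes on the HFD was -0.031 and -0.010, and Slc16a1 between diets in WT 0.039 and 0.019. Without 1 library, Bdh1 on the HFD lay between -0.055 and 0.16, and the interactions of Oxct1 between -0.048 and 0.0072 and of Slc16a1 between -0.11 and 0.0076. Median-of-ratios scaling put mean Oxct1 at 374 FPKM in iKO chow and 332 in WT HFD, and Acat1 at 156 and 215.

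The counts of all called genes moved more. In WT, 1027 genes called between diets became 2092 with array weights, 327 (178 higher, 149 lower, against 98 and 929) under median-of-ratios scaling, 353 under upper-quartile scaling, 622 with no filter and 625 to 1181 without 1 library (661 without RT1 and 625 without RT3). In iKO, 1279 became 560 (328 higher, 232 lower, against 211 and 1068) and 594 under these scalings, 830 with no filter, 710 with only the 2 groups compared, 844 without RT1 and RT4 and 525 without RT4 and RT7. On chow 136 became 87 and 73 without these pairs. On the HFD 22 became 95 with array weights, 7 with no filter, 5 with only the 2 groups compared and 6 (without RT12) to 39 (without RT11) when 1 library was left out. By limma the interaction had 4 calls, and 0 under either scaling, with no filter or without either pair, where 531 to 870 genes had an unadjusted p under 0.05, and it had 0 to 5 without 1 library. Under median-of-ratios scaling the genotype calls were 18 higher and 130 lower on chow, against 44 and 92, and 8 and 17 on the HFD, against 13 and 9. No paired analysis was possible because the library numbers are unique and the groups share none.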
